A study of Mus musculus with 6 samples.

Results

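The death receptors and their adaptors were followed as 9 genes chosen by name, out of 24972 gene rows in the table: Fas, Tnfrsf10b, Tnfrsf1a, Tnfrsf21, Tnfrsf1b, Tnfrsf12a, Fadd, Tradd and Cflar. All 9 were found, and all 9 passed the filter on low values (a mean of at least 10 normalized counts over the 6 libraries), as did 12477 genes in all. The libraries came from heart cardiomyocytes of MX1gfp reporter mice, 3 of which received phosphate-buffered saline as vehicle and 3 doxorubicin at 25 mg per kg, in a single intraperitoneal injection of 100 microlitres. Cells were isolated 48 hours later from the ventricles and enriched by settling under gravity, with no sort described, so RNA of other heart cells can be present. Both groups carry the reporter, and the labels state neither age nor sex. Doxorubicin is an anthracycline that poisons topoisomerase II and damages DNA and the heart, and the comparison asks which transcripts differ after it.

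Death receptors are members of the tumour necrosis factor (TNF) receptor superfamily whose cytoplasmic death domain recruits adaptor proteins once ligand is bound. Fas and the TRAIL receptor encoded by Tnfrsf10b recruit FADD, which brings in caspase-8, whereas TNF receptor 1 (Tnfrsf1a) recruits TRADD and the kinase RIPK1 and mainly signals to NF-kappaB, with FADD and caspase-8 joining a later complex. Tnfrsf21 encodes death receptor 6. TNF receptor 2 (Tnfrsf1b) and Fn14, the TWEAK receptor (Tnfrsf12a), have no death domain and bind TRAF proteins directly. Cflar encodes cFLIP, a relative of caspase-8 that limits its activation, and Fas and Tnfrsf10b are known target genes of p53.

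The deposited values summed to between 7217949 and 7500386 normalized counts per vehicle library, and to between 5410780 and 6498373 per doxorubicin library. The spacing of the low values put the reads behind them at about 7710000 to 11400000 and 3670000 to 6170000, so every doxorubicin library was shallower, and depth and treatment cannot be told apart. The summed level of 8 cardiomyocyte markers was 572009 to 682516 in vehicle, against 519244, 167089 and 147660.1 in the treated replicates 1, 2 and 3. Doxorubicin replicate 1 thus stood apart from the other treated libraries, limma gave it the lowest weight of the 6 (0.277), and results are also given without it. Doxorubicin replicate 3 had the next-lowest weight (0.425). Replicate 1 was singled out from these same values and lay nearest to vehicle in these markers, so calls made without it are not independent support. The summed level of 10 macrophage markers was 2583 to 2791 against 4238, 7421 and 15615, and 9 of the 10 lay above all vehicle libraries. For 10 endothelial markers the sums were 17094 to 23683 against 32348 to 41552, with 7 above all vehicle libraries. The 9 fibroblast markers summed to 6881 to 9064 against 9439 to 24219.8, the 8 neutrophil markers to 19.4 to 37.0 against 78.2 to 680, and the 8 mural markers to 9861 to 14629 against 11321 to 13327. The 4 atrial markers summed to 456 to 526 against 368 to 1426 and the 4 erythroid markers, of which 2 were at 0 in every library, to 1098 to 1999 against 245 to 8358. All 8 lymphocyte markers were too low to test, with sums of 12.6 to 33.3 against 6.01 to 59.7. Of the 8 cardiomyocyte markers 5 lay below all vehicle libraries and 0 above. Of the 9 fibroblast markers 4 lay above and 0 below, and the groups overlapped in every tested mural, atrial and erythroid marker. Over all genes tested, 19.2% lay above all vehicle libraries and 22.6% below. The neutrophil markers were low in vehicle, so only their sums are given. The part of these cells in the results was not tested, and fewer cells of a type cannot be told apart from less RNA per cell. Xist transcripts marked 1 vehicle and 2 doxorubicin libraries and Y-linked transcripts the other 3, and 8 of the 9 genes had the same direction within both classes. The exception was Tnfrsf21, with log2 differences of 0.59 and -0.08. Fas stood at 1.85 and 1.99, Cflar at 0.88 and 0.85 and Tnfrsf12a at -0.70 and -0.85. For these last genes and for Tnfrsf1a, Tnfrsf1b and Fadd the same direction was fixed in advance, since their groups did not overlap. It was open only for Tnfrsf21, Tnfrsf10b (1.15 and 0.53) and Tradd (0.33 and 0.28), so an effect of the class was hardly tested.

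Of the 9 genes, 4 had every doxorubicin library above every vehicle library, namely Fas, Tnfrsf1a, Tnfrsf1b and Cflar. Another 2, Tnfrsf12a and Fadd, had every doxorubicin library below every vehicle library. The same held for 19.2% (higher) and 22.6% (lower) of all genes tested, so a separation of the groups was common in these libraries. The median log2 fold change of the 9 genes was 0.69, against -0.005 over all genes tested. With all 6 libraries, 0 of the 9 genes passed a Benjamini-Hochberg adjusted p of 0.05 in limma, as did 0% of all genes in either direction, while 4 were higher and 2 lower at an unadjusted p under 0.05, against 16.7% and 19.3% of all genes. Scaling each library to the same total (equal totals) moved the median of all genes to 0.29. It put 4584 of the 12477 genes above all vehicle libraries and 1258 below, against 2401 and 2820 as deposited. Without doxorubicin replicate 1, limma called 5 of the 9 higher (Fas, Tnfrsf10b, Tnfrsf1a, Tnfrsf1b and Cflar) and 2 lower (Tnfrsf12a and Fadd), against 19.3% and 21.8% of all genes. When any other single library was left out, it called 0 of the 9.

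**Figure D1:**
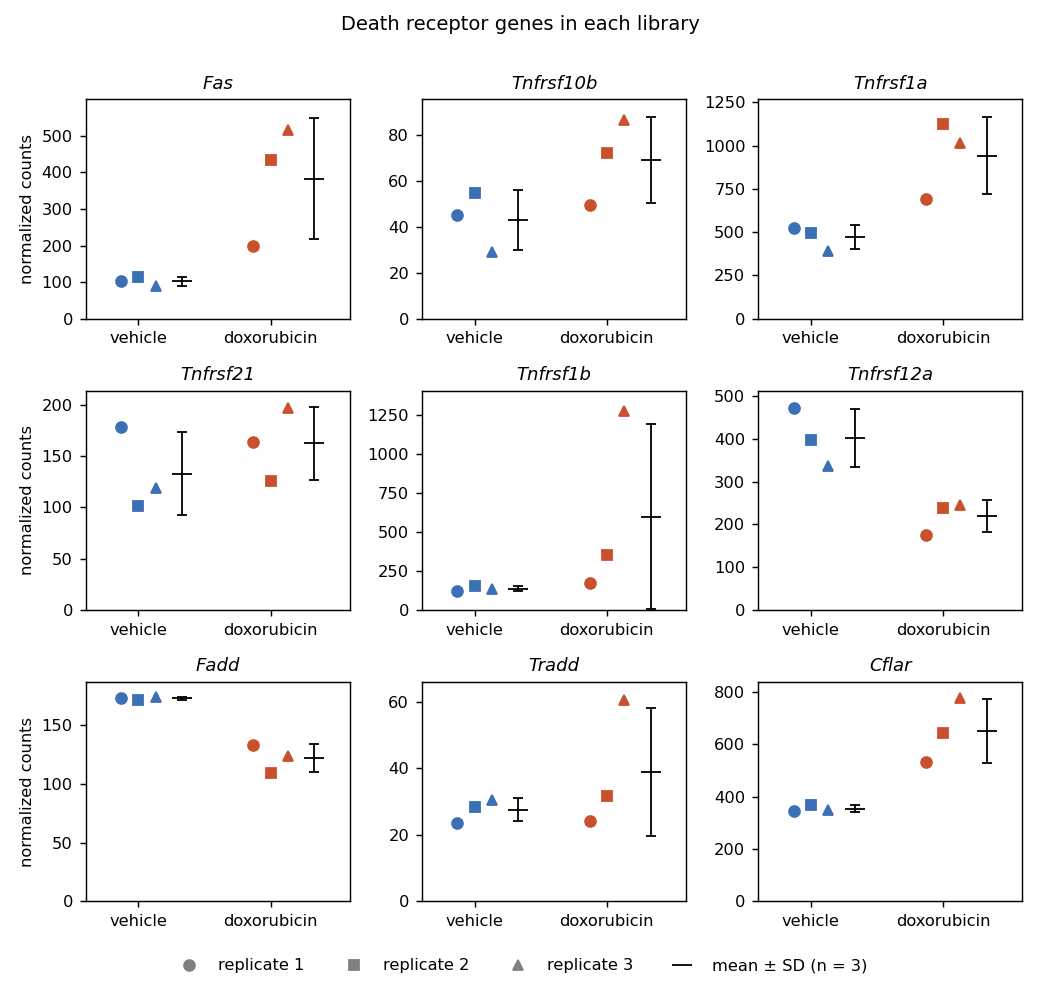
Normalized counts of the 9 genes (vertical axis, from 0) in the 3 vehicle and 3 doxorubicin libraries, with a symbol per replicate number and a black bar for the mean ± SD of each group. The groups are apart in Fas, Tnfrsf1a, Tnfrsf1b and Cflar (higher) and in Tnfrsf12a and Fadd (lower), and they overlap in Tnfrsf10b, Tnfrsf21 and Tradd.

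The windows just upstream of the start sites are shown for the 3 receptors whose treated libraries all lay above vehicle and for the receptor that lay below. They were chosen after their motif matches were seen and come from RefSeq (GRCm38.p6), which gave a 250-base window for 7 of the 9 genes, all but Tnfrsf10b and Tradd; the printed Fas stretch stops at 238 bases, where another annotated start of the gene begins. Capitals mark the palindrome TTCNNNGAA, the core of STAT binding sites, in the first 3 windows and the GC box GGGCGG, on either strand, in the last. Each is written 5′ to 3′ on the strand of the gene.
Fas (chr19:34290409-34290646, plus strand): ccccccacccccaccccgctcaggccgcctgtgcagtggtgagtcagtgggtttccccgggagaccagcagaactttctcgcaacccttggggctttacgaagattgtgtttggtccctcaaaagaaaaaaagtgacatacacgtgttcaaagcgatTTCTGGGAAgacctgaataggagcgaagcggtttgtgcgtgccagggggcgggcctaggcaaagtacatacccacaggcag
Tnfrsf1a (chr6:125349473-125349722, plus strand): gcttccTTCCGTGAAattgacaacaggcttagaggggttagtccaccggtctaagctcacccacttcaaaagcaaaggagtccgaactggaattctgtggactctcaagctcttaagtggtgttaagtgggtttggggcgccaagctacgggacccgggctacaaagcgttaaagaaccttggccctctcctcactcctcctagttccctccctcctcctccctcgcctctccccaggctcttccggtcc
Tnfrsf1b (chr4:145246871-145247120, minus strand): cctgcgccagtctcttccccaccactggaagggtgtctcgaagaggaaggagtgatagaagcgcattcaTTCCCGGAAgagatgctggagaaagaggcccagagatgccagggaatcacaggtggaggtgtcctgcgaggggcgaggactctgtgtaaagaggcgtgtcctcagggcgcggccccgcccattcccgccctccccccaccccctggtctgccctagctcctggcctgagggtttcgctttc
Tnfrsf12a (chr17:23677450-23677699, minus strand): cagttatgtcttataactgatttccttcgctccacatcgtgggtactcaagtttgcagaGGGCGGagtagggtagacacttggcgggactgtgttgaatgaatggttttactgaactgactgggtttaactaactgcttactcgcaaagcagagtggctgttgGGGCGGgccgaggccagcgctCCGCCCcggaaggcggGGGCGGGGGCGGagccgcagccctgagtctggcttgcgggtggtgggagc
TTCNNNGAA occurred once in each of Fas (93 to 85 bases before the start site that RefSeq's window is built on), Tnfrsf1a (244 to 236) and Tnfrsf1b (181 to 173), and in none of the windows of Cflar, Fadd, Tnfrsf12a and Tnfrsf21. It was present in 7.02% of 32851 windows of this length. The Tnfrsf12a window held 5 matches to GGGCGG, a motif found in 32.7% of all windows and also in those of Fas, Fadd, Tnfrsf1b and Tnfrsf21. In all, 11 motifs were searched on both strands. TGANTCA (6.75% of windows) was found in Fas, the interferon regulatory factor repeat (2.98%) in Tnfrsf1b and TATAAA (12.4%) in Cflar, where its 2 matches overlap each other. TGACGTCA (1.55%), CCGGAAGT (2.88%), the NRF1 site (0.782%), the NF-kappaB site (7.25%), the p53 half-site (7.13%) and the CArG box (1.47%) were in none of the 7 windows. A match describes the letters in a window and is not evidence of binding.

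Fas, the receptor for Fas ligand, whose upstream window is printed above, lies on chromosome 19 (34290647 to 34327775, GRCm38, from 1). It held 103, 114 and 88.4 normalized counts in the vehicle replicates, against 199, 433 and 517 in the treated ones, each in the order 1 to 3. The lowest doxorubicin library therefore lay above the highest vehicle library, and replicates 2 and 3 lay well above replicate 1. The mean was 102 ± 12.7 in vehicle and 383 ± 165 in doxorubicin (SD, n = 3 in each), a log2 fold change of 1.80 (SE 0.34, 95% interval 1.01 to 2.59, limma adjusted p 0.0859). Without doxorubicin replicate 1 it was 2.21 (adjusted p 0.000178), within a range of adjusted p from 0.000178 to 0.256 over 17 alternatives. About 101 to 162 reads stood behind a vehicle value and 190 to 358 behind a doxorubicin value.

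Tnfrsf1a, which encodes the TNF receptor found on most cell types, lies on chromosome 6 (125349723 to 125362483). Its values were 524, 494 and 393 in vehicle, against 691, 1123 and 1014 after doxorubicin, again with no overlap and with replicate 1 the lowest of the treated libraries. The log2 fold change was 0.98 (SE 0.22, 95% interval 0.47 to 1.49, limma adjusted p 0.0859). Without doxorubicin replicate 1 it was 1.19, with an adjusted p of 0.0014 and a range from 0.0014 to 0.256 over the alternatives.

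Tnfrsf10b (chromosome 14, 69767472 to 69784411) was, per kilobase, the lowest receptor of the 9 genes, with 45.4, 54.7 and 29.0 normalized counts in vehicle and 49.4, 72.2 and 86.5 after doxorubicin. Doxorubicin replicate 1 lay between the vehicle libraries, and replicates 2 and 3 lay above all of them. By limma the log2 fold change was 0.69 (SE 0.31, 95% interval -0.05 to 1.42, adjusted p 0.157). It was 0.91 without doxorubicin replicate 1 (adjusted p 0.0402, range 0.0402 to 0.416), and 0.43 without vehicle replicate 3, the lowest library. With equal totals it was 0.98, or 0.69 relative to the median of all genes. The groups were then apart, but so were those of 4584 of 12477 genes in that direction, against 2401 as deposited. Tnfrsf10b and Fas are both p53 targets, but a test of the difference between their fold changes was not run.

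Tnfrsf21 (chromosome 17, 43016555 to 43089188) had interleaved groups, at 178, 101 and 119 in vehicle and 164, 126 and 197 after doxorubicin. By limma the log2 fold change was 0.31 (SE 0.26, adjusted p 0.407), no larger than the spread between replicates. Its 95% interval ran from -0.29 to 0.92, and differences of that size are not resolved by these libraries.

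Tnfrsf1b, the TNF receptor without a death domain, which leukocytes and endothelial cells express strongly, varied most of the 9 genes between the treated mice. It lies on chromosome 4 (145212368 to 145246870) and held 121, 154 and 135 normalized counts in vehicle and 172, 350.0 and 1275 in doxorubicin replicates 1 to 3. The groups did not overlap, but replicate 1 lay just above the vehicle libraries and replicate 3 far above the rest. The mean was 136 ± 16.6 against 599 ± 592 (SD, n = 3 in each), and the log2 fold change was 1.64 (SE 0.63, 95% interval 0.17 to 3.11, limma adjusted p 0.112). Without doxorubicin replicate 3 it was 0.85, and without replicate 1 it was 2.29 (adjusted p 0.00566, range 0.00566 to 0.274). The macrophage markers, given above, were also highest in doxorubicin replicate 3, at a sum of 15615 against 7421 in replicate 2. The endothelial markers were highest there too (41552, against 32415 and 32348 in replicates 1 and 2). The neutrophil markers were highest in replicate 2 (680, against 520.5 in replicate 3) and the lymphocyte markers in replicate 1 (59.7). The part of these cells in the Tnfrsf1b value was not tested. Relative to Tnfrsf1a in the same library, Tnfrsf1b was at 0.230, 0.311 and 0.343 in vehicle and 0.249, 0.312 and 1.26 after doxorubicin, so that only replicate 3 departed from the vehicle range.

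Tnfrsf12a, which encodes the small receptor Fn14 for the ligand TWEAK, was the receptor whose treated libraries all lay below vehicle. It lies on chromosome 17 (23675445 to 23677449), and its values were 473, 397 and 337 in vehicle against 176, 239 and 245 after doxorubicin. The lowest treated library was here replicate 1, which was the nearest to the vehicle mean for Fas, Tnfrsf1a, Tnfrsf1b, Fadd and Cflar. The log2 fold change was -0.87 (SE 0.20, 95% interval -1.32 to -0.41, limma adjusted p 0.0859), and without doxorubicin replicate 1 it was -0.72 (adjusted p 0.013, range 0.0124 to 0.256). With equal totals the difference was -0.57, or -0.86 relative to the median of all genes, and the groups overlapped. That setting left 1258 of 12477 genes below all vehicle libraries, against 2820 as deposited.

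**Figure D2:**
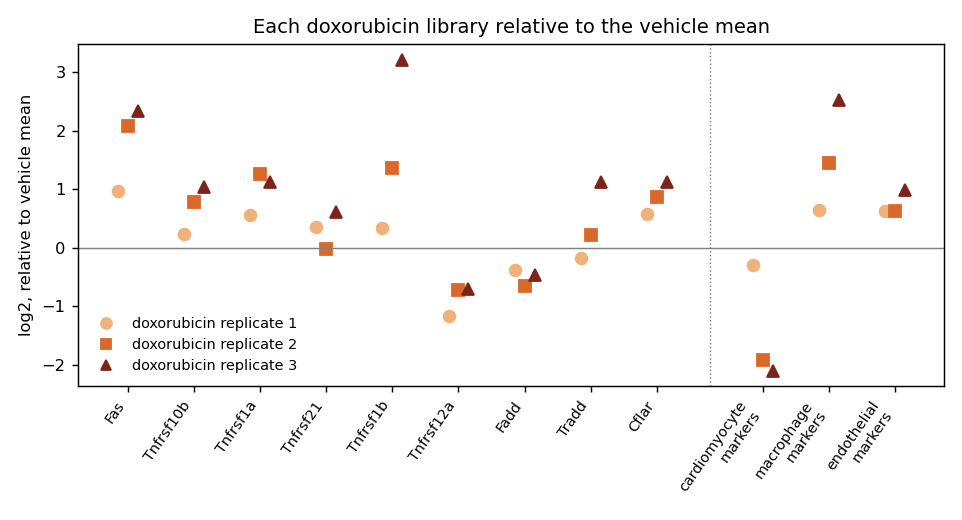
Log2 difference of each doxorubicin library from the vehicle mean (vertical axis) for the 9 genes, and on the right for the summed cardiomyocyte, macrophage and endothelial markers, with a symbol per replicate. Replicate 3 leads for Fas (2.34) and Tnfrsf1b (3.22) and replicate 1 is nearest to 0 for both (0.97 and 0.34), whereas for Tnfrsf12a replicate 1 is farthest from 0 (-1.17).

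Among the adaptors, Fadd, which links death domains to caspase-8, was nearly constant in the vehicle libraries. It lies on chromosome 7 (144578323 to 144582441) and held 173, 171 and 174 normalized counts in vehicle against 133, 109 and 124 after doxorubicin. All 3 treated libraries lay below all 3 vehicle libraries, at a mean of 122 ± 12.2 against 172 ± 1.72 (SD, n = 3 in each). The log2 fold change was -0.50 (SE 0.15, 95% interval -0.85 to -0.16, limma adjusted p 0.0859), and without doxorubicin replicate 1 it was -0.57 (adjusted p 0.0209, range 0.0194 to 0.369). With equal totals it was -0.20, which is -0.50 relative to the shifted median of all genes, and the groups remained apart. In that setting 1258 of 12477 genes lay below all vehicle libraries, against 2820 as deposited. In GENCODE M21, 239 exonic bases of Fadd lie opposite the antisense gene Faddos, and since the sources used here do not say whether strand was used in counting, reads of the pair may not be told apart.

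Tradd, the adaptor of TNF receptor 1, was among the lowest of the 9 genes per kilobase (chromosome 8, 105258575 to 105264594). Its values were 23.7, 28.4 and 30.4 in vehicle and 24.2, 31.7 and 60.7 after doxorubicin, with about 23 to 41 reads behind each. Only doxorubicin replicate 3 departed from the rest by a wide margin. By limma the log2 fold change was 0.39 (SE 0.37, 95% interval -0.46 to 1.24, adjusted p 0.466), and it was 0.02 without doxorubicin replicate 3.

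Cflar, the inhibitor, lies on chromosome 1 (58711311 to 58758884) and held 345, 369 and 349 normalized counts in vehicle against 531, 644 and 775 in doxorubicin replicates 1 to 3. The groups did not overlap, with means of 354 ± 13.1 and 649.7 ± 122 (SD, n = 3 in each), and the treated libraries spread more than the vehicle ones. The log2 fold change was 0.86 (SE 0.17, 95% interval 0.46 to 1.25, limma adjusted p 0.0859). Without doxorubicin replicate 1 it was 0.99, with an adjusted p of 0.00163 and a range from 0.00163 to 0.256 over the alternatives. The table has 1 row per gene, so the long and short forms of cFLIP were not separated.

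**Figure D3:**
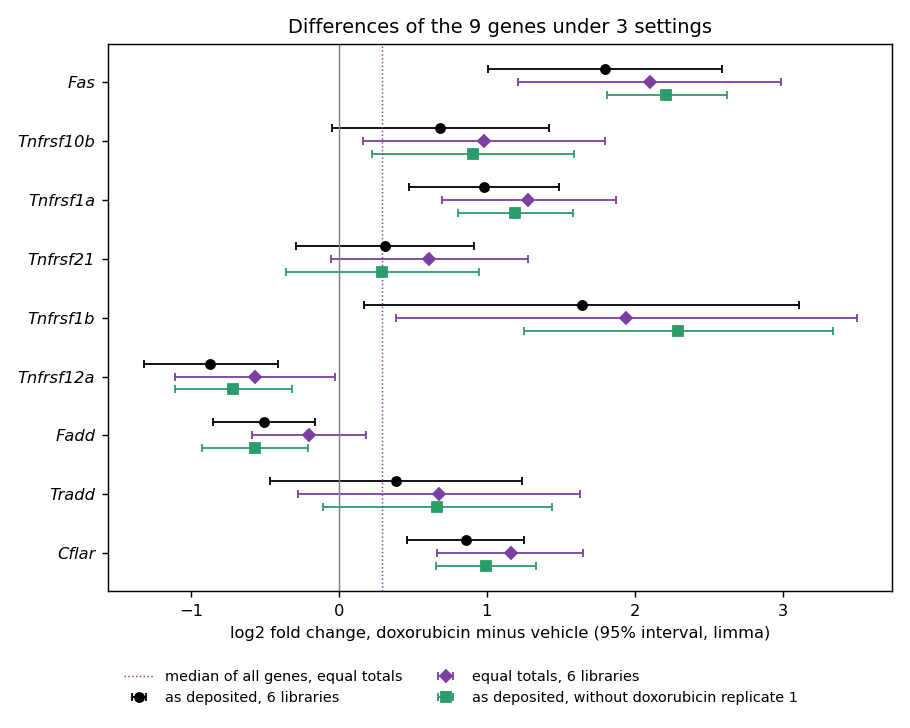
Log2 fold change of each gene (horizontal axis, doxorubicin minus vehicle) with its 95% interval from limma, for the values as deposited, for equal totals and without doxorubicin replicate 1. With all 6 libraries as deposited, the intervals of Tnfrsf10b, Tnfrsf21 and Tradd include 0, and with equal totals those of Tnfrsf21, Fadd and Tradd do; the dotted line is the median of all genes under equal totals, 0.29.

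Divided by the length of the longest coding transcript in GENCODE M21, the levels can be ordered across genes. Per kilobase of that transcript, Tnfrsf12a was the highest in all 3 vehicle libraries, at 409 ± 69.1 normalized counts (SD, n = 3), followed by Tnfrsf1a at 218 ± 31.9 and Fas at 68.6 ± 8.58. Cflar (53.9 ± 1.99), Fadd (44.2 ± 0.441), Tnfrsf21 (36.5 ± 11.1) and Tnfrsf1b (35.7 ± 4.34) came next, and the last 3 of these did not separate in every library. Tradd (16.3 ± 2.05) and Tnfrsf10b (13.5 ± 4.10) were lowest and changed places between libraries. After doxorubicin, and again by the longest transcript, Tnfrsf1a was the highest per kilobase in all 3 libraries, at 437 ± 104, with Fas at 259 ± 111, Tnfrsf12a at 224 ± 38.9 and Tnfrsf1b at 157 ± 155. The order of Fas and Tnfrsf12a differed between the treated libraries, since Fas was below Tnfrsf12a in replicate 1 (134 against 179) and above it in replicate 3 (349 against 249). The first 4 places depend on the transcript chosen, because Tnfrsf1a, Tnfrsf12a, Fas and Cflar each have several coding transcripts, while the other 5 genes have 1. By the shortest, the vehicle means were 1206 for Tnfrsf1a, 633 for Tnfrsf12a, 200.1 for Cflar and 191 for Fas, and the doxorubicin means 2417, 347, 367 and 719.7. Tnfrsf1a then stood first in both groups, so a change in which gene was highest rests on the longest transcripts.

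Ratios of 2 genes within a library do not depend on how libraries are scaled to each other. The ratio of Tnfrsf1a to Tnfrsf12a was 1.11, 1.24 and 1.17 in vehicle, against 3.92, 4.69 and 4.14 after doxorubicin. It was alike within each group, also in doxorubicin replicate 1. The ratio of Cflar, the inhibitor, to Fadd, the adaptor, was 2.00, 2.16 and 2.00 in vehicle and 4.0, 5.93 and 6.23 after doxorubicin. Fas relative to Cflar stood at 0.298, 0.308 and 0.253 against 0.375, 0.672 and 0.667, so the receptor was higher relative to the inhibitor in each treated library, least in replicate 1. Fas relative to Fadd was between 0.508 and 0.666 in vehicle and at 1.5, 3.99 and 4.16 after doxorubicin. The groups were apart in each of these 4 ratios. In 3 of them this was fixed in advance, since a gene above all vehicle libraries was divided by one below; Fas to Cflar is the exception. Of the 6 ratios computed the other 2 overlapped, namely Tnfrsf1b to Tnfrsf1a, given earlier, and Tnfrsf1a to Tradd, at 22.1, 17.4 and 12.9 against 28.5, 35.4 and 16.7. No p is given, since the smallest that an exact permutation test (two-sided) allows for 3 libraries against 3 is 0.1.

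**Figure D4:**
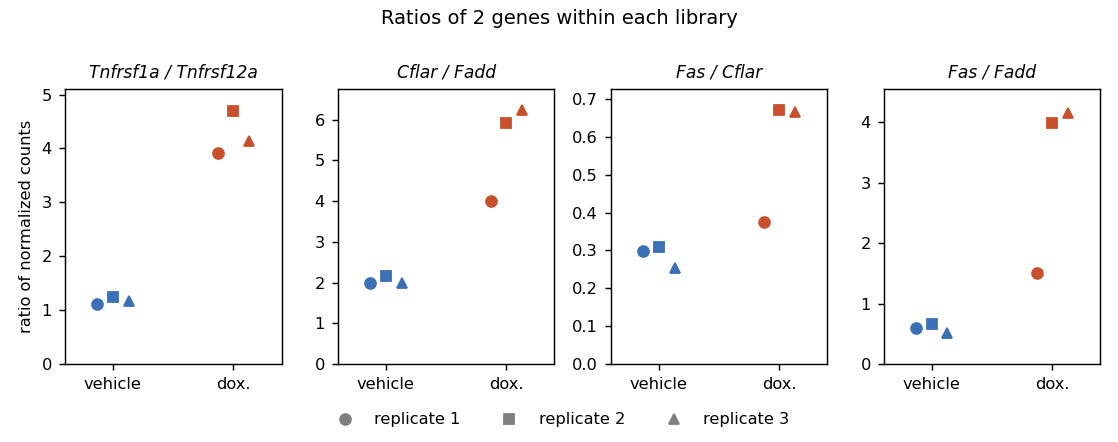
Ratio of the normalized counts of 2 genes in the same library (vertical axis, from 0) for 4 pairs, with a symbol per replicate. The treated libraries lie above all vehicle libraries in each pair, and for Tnfrsf1a to Tnfrsf12a the 3 treated libraries sit between 3.92 and 4.69 against 1.11 to 1.24.

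The rest of the pathway was followed with a list of 53 other genes, of which 44 were tested. All 3 treated libraries lay above all vehicle libraries in 16 of the 44 and below in 1, against 19.2% and 22.6% of all genes, and the median log2 fold change was 0.35. In limma 0 passed an adjusted p of 0.05, and 13 were higher and 1 lower at an unadjusted p under 0.05, against 16.7% and 19.3% of all genes. The 13 became 7 without vehicle replicate 3, where the count over all genes fell as well, from 2081 to 1145 of 12477. Without doxorubicin replicate 1, limma called 14 of the 44 higher and 2 lower, against 19.3% and 21.8% of all genes. The median was 0.225 without doxorubicin replicate 3.

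Among the ligands, Fasl, whose product binds Fas, was listed at 0 in all 3 vehicle libraries and at 2.11, 2.43 and 1.47 after doxorubicin. Those values rest on 1 or 2 reads each, so no fold is given. Tnf held 13.9, 15.3 and 6.07 in vehicle and 18.9, 3.70 and 59.2 after doxorubicin, with groups that overlap. Tnfsf10, which encodes TRAIL, held 256 to 302 in vehicle and 402, 237 and 510.3 after doxorubicin, and its groups overlapped as well. Tnfsf12, which encodes TWEAK, the ligand of Fn14, was at 180.4, 164 and 137 in vehicle against 250.4, 259 and 319, without overlap (log2 fold change 0.78, SE 0.17, limma adjusted p 0.0859). The ligand's treated libraries thus lay above vehicle and those of its receptor Tnfrsf12a below. Tnfsf12 shares 728 exonic bases with the readthrough gene Tnfsfm13 on the same strand, so its value is uncertain to that extent.

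Of the 7 other receptors on the list 3 were tested, and Eda2r, the ectodysplasin A2 receptor and a known p53 target, had the largest difference among them. It held 58.6, 37.9 and 50.8 in vehicle and 77.0, 165 and 346 in doxorubicin replicates 1 to 3 (log2 fold change 1.74, SE 0.49, limma adjusted p 0.0859). All 20 genes of the adaptor and ubiquitin complexes were tested, with 9 above and 1 below all vehicle libraries (19.2% and 22.6% of all genes). Ripk1, the kinase that TRADD and TNF receptor 1 recruit, held 134, 107 and 101 against 154, 209.8 and 253 (log2 fold change 0.83, SE 0.22, adjusted p 0.0859). Birc3, which encodes the ubiquitin ligase cIAP2 and is a known NF-kappaB target, held 64.2 to 88.3 against 94.5, 239 and 196, a log2 fold change of 1.14. Traf1, a TRAF protein that TNF receptor 2 can recruit, was low in vehicle (0.875 to 5.74, or 1 to 9 reads) and held 7.30, 19.0 and 64.5 after doxorubicin. It passed the filter on low values only through the treated libraries, so no test is given. Its place among the 16 genes above vehicle, the 9 of its group and the 13 higher at an unadjusted p under 0.05 in limma is no support for a difference. Faf1, which encodes a Fas-associated factor, was the only gene of the 44 with every treated library below vehicle, at 798 to 834 against 605, 557 and 330.

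All 7 caspases and effectors were tested, and 2 lay above all vehicle libraries, against 19.2% of all genes. Casp8, the initiator caspase of the pathway, held 119, 112 and 99.0 in vehicle against 122, 145 and 181 (log2 fold change by limma 0.42, SE 0.19, adjusted p 0.156). Its groups touched closely, with doxorubicin replicate 1 only just above vehicle replicate 1. Of 5 inhibitors 4 were tested and 1 lay above vehicle, and of 7 genes on the NF-kappaB side 2 did. In groups this small, such counts are not told apart from the 19.2% over all genes.

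**Figure D5:**
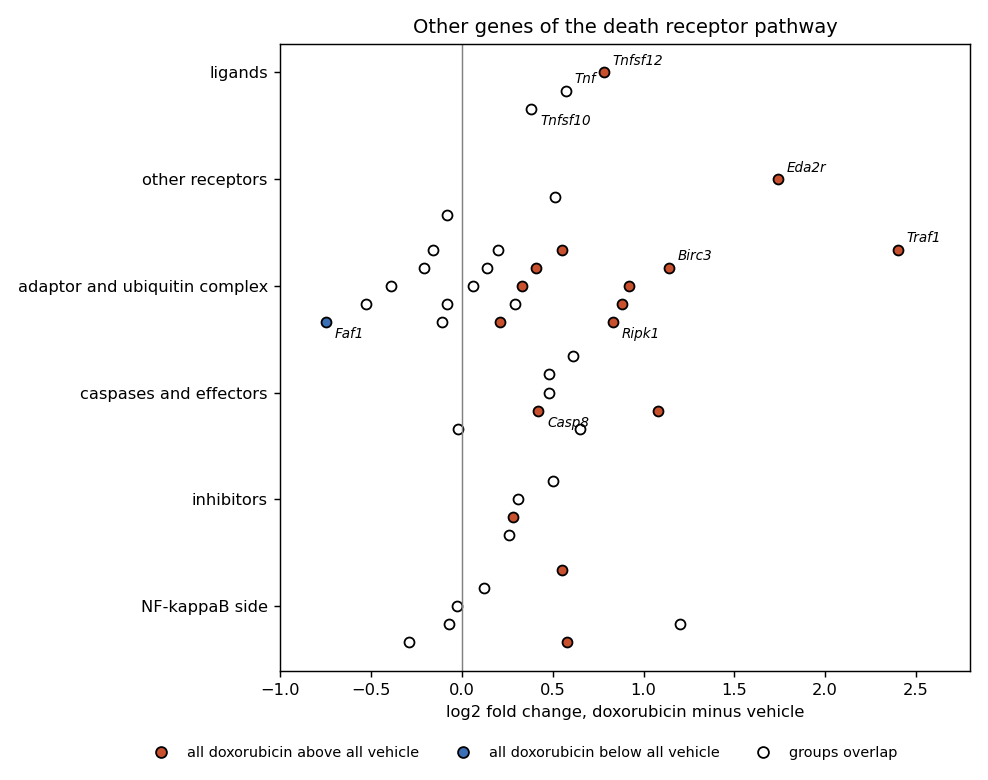
Log2 fold change (horizontal axis, doxorubicin minus vehicle) of the 44 tested genes of the pathway list, by group, with 1 point per gene and the named genes labelled. Filled points mark the 16 genes with all treated libraries above all vehicle libraries and the 1 gene, Faf1, with all below.

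The genes with the pattern most like Fas were found by the root mean square difference of log2 values over the 6 libraries, each gene centred on its vehicle mean. They were 2900052L18Rik (0.09), Mcf2l (0.12), which encodes a guanine nucleotide exchange factor, and Prom1 (0.14), which encodes prominin-1. Mcf2l held 456, 411 and 407 in vehicle and 824, 1771 and 2335 in doxorubicin replicates 1 to 3. Of the other 8 genes described here the nearest to Fas was Tnfrsf1b, at 0.54, which placed 506th with 12477 genes tested. The farthest was Tnfrsf12a, which placed 10774th. None of the 8 was among the 3 closest.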

How the data were processed

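RNA from 6 libraries (3 vehicle, 3 doxorubicin, grouped and numbered by the sample titles) was compared. Per the series' design text and the submitters' processing notes, reads were aligned with STAR (2.6.1a) in BaseSpace RNAseq Alignment 2.0.2 to mm10 with RefSeq genes, followed by RNA-seq Differential Expression 1.0.1; the notes also name Salmon. What counted the reads, whether strand was used and how values were normalized is not given in the sources used here. Values that the authors deposited are a signal: normalized, non-whole counts of reads for each gene and library. Low values lay within 0.1 step of a whole multiple of the worth of 1 read in 81.1% to 92.5% of cases, so read numbers are estimates and count tests were not used.

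Values were used as deposited, as log2(value + 1), which understates differences of low genes. Genes whose mean over the 6 libraries reached 10 were tested with limma 3.58.1 (R 4.3.3; empirical Bayes with a mean-dependent prior), two-sided and Benjamini-Hochberg adjusted over all of them, at a threshold of 0.05. The script was tested on simulated data with independent noise of the same size in every library, unlike the treated libraries here. That checks the code and not what these libraries can resolve. The members and lists were chosen with earlier results of these data known. Named besides the 9 members were the 3 list genes with the largest positive and up to 3 with the largest negative difference among those whose groups do not overlap, 6 fixed genes (Fasl, Tnf, Tnfsf10, Tnfsf12, Ripk1, Casp8) and the 3 genes most like Fas. Alternatives were pseudocounts of 0.5 and 8, no filter, a minimum mean of 50, equal totals, quantile normalization, no trend, robust estimation, library weights, a covariate for the class of a library by Xist or Y-linked transcripts, the replicate block and leaving out each library. Gene positions are from RefSeq (GRCm38.p6), which mm10 denotes, and all 9 names matched. Python 3.11.15 with matplotlib 3.10.9 drew the figures.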

Additional observations from a re-analysis of the deposited data

How the results depend on the processing

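No alternative turned the direction of any of the 9 genes: of 98 values from fits with all libraries, 92 stayed on the same side of the threshold and 6 passed it, and of 54 values from fits without 1 library 47 stayed and 7 passed. The 6 that passed came with library weights, where doxorubicin replicate 1 had a weight of 0.277: Fas 1.93, Tnfrsf1a 1.11, Tnfrsf1b 1.59, Tnfrsf12a -0.79, Fadd -0.57 and Cflar 0.86. The 7 came without doxorubicin replicate 1. Weights gave 1954 genes higher and 2318 lower among all genes, and leaving out a library gave 0 to 2409 higher and 0 to 2718 lower, the highest without doxorubicin replicate 1. Leaving out each library moved Fas from 1.53 to 2.21, Tnfrsf10b from 0.43 to 0.91, Tnfrsf1a from 0.84 to 1.19, Tnfrsf1b from 0.85 to 2.29, Tnfrsf12a from -0.99 to -0.72, Fadd from -0.57 to -0.42, Cflar from 0.72 to 0.99, Tnfrsf21 from 0.14 to 0.54 and Tradd from 0.02 to 0.66. For the pathway list, the median of 0.35 was 0.655 with equal totals, which raised the median of all genes by about as much, and 0.225 to 0.424 when a library was left out, lowest without doxorubicin replicate 3. Library weights called 13 of the 44 tested list genes higher and 2 lower, against 1954 and 2318 of all 12477 genes. The number of list genes below all vehicle libraries ran from 1 to 4 over the fits that left out a library. It was 4 without vehicle replicate 1 and 3 without doxorubicin replicate 1 or 2. The number above ran from 16 to 23. Fewer libraries separate more easily: of all genes tested 2820 lay below with every library, against 2990 to 4100 when 1 was left out. Those above were 2401, against 2557 to 3937. Same-numbered libraries did not deviate together (correlations across 12477 genes of -0.128, 0.0331 and -0.0928), so no pairing by number was seen. Differently numbered libraries ran from -0.183 to 0.223, and with 3 libraries a group a weak pairing could not be seen. With the replicate block, limma again called 0 genes and the adjusted p of Fas was 0.115 at the same 1.80. The 3 mice a group and the shallow treated libraries limit what can be resolved. The interval was widest for Tnfrsf1b (SE 0.63), whose treated libraries differ most, and the fewest reads stood behind Tradd.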

Other observations

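Besides the genes above, 20 rows of the table carry a Tnfrsf or Tnfsf name, 11 receptors and 9 ligands, and 6 of the 20 passed the filter on low values. Tnfrsf26, a receptor gene of the cluster that also holds Tnfrsf22 and Tnfrsf23, held 8.99, 3.85 and 3.55 normalized counts in vehicle and 15.7, 16.8 and 27.5 after doxorubicin, without overlap. Tnfsf13b, which encodes the B-cell factor BAFF, held 2.87 to 6.14 in vehicle and 5.25, 25.3 and 22.2 in doxorubicin replicates 1 to 3. Tnfrsf26 and Tnfsf13b passed the filter only through the treated libraries, so they are given as values with no test. Tnfsf13, which encodes APRIL, had a log2 fold change of 1.56 (limma adjusted p 0.12) and groups that overlapped. Tnfrsf11a (0.49), the receptor RANK, and Tnfrsf19 (-0.38) had groups that overlapped, and the readthrough gene Tnfsfm13 (0.74) did not. The other 14 rows had a mean under 10 and were not tested.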
